A study of Mus musculus with 11 samples.

Results

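The genotype comparison in livers that had received only oil, the usual carrier of carbon tetrachloride (CCl4), was described across all genes. It set 2 libraries of Hmgb2-/- C57BL/6 mice after oil (KO_Oil 11 and 12) against 3 libraries of wild-type C57BL/6 mice after oil (WT_Oil 1, 2 and 3), chosen by their sample titles, genotype and treatment labels. These 5 of the 11 libraries of the series are the uninjured arm; the other 6 come from knockout and wild-type livers after CCl4 and served here to estimate the spread and to test whether the genotype difference was the same after injury. Per the sample labels, the RNA was total RNA of flash-frozen liver, taken through a stranded total RNA library kit. The series' design text instead speaks of capped RNA, and the sources used here do not settle which it was. The sources used here do not give the age and sex of the mice, the dose of oil, the hour of collection, the feeding state or the part of the gene that the knockout removes. It is not stated that each library came from its own mouse, so every p-value measures only how these samples vary, and that variation may be technical.

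Hmgb2 encodes a high-mobility group box protein, a chromatin protein that binds and bends DNA. Liver transcription follows the time of day and the feeding state. In the circadian clock, the activators ARNTL and CLOCK or NPAS2 bind E-box motifs and drive the period (Per), cryptochrome (Cry), REV-ERB (Nr1d) and PAR bZIP (Dbp, Tef) genes, whose products feed back on the activators or act on output genes through D-box motifs. In fasting, the nuclear receptor PPARA raises fatty acid oxidation and ketone body genes, while insulin after a meal raises Srebf1 and lowers Igfbp1 and G6pc.

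The table held 7306082 and 7506468 counts in KO_Oil 11 and 12, and 10021522, 13356194 and 10859663 counts in WT_Oil 1, 2 and 3, so both knockout libraries were the shallower ones. The liver label was checked with 10 hepatocyte markers that the table holds, all detected. They summed to between 42244 and 46657 CPM (counts scaled to a common library size after TMM adjustment) in the KO_Oil libraries and between 53013 and 58464 CPM in the WT_Oil libraries, and 0 of the 10 passed the test. The mitochondrial genes in the table took 2.09% to 2.19% of its counts in KO_Oil and 1.39% to 1.6% in WT_Oil. Since mt-Rnr1, mt-Rnr2 and mt-Co1 are listed apart as very abundant, these are not the shares of all mitochondrial RNA. The mitochondrial tRNA genes among them took 0.749% and 0.350% in KO_Oil 11 and 12, against 0.0989% to 0.112% in WT_Oil. A principal component analysis of the 500 genes that varied most put the groups apart on its second axis (22.1% of the variance), where the KO_Oil libraries stood at -22 and -19.1 and the WT_Oil libraries between 14.8 and 22.6. Within the WT_Oil group the deviation of a gene from the group mean followed its GC content in WT_Oil 1 (Spearman's rho 0.549 over 15276 genes) and went against it in WT_Oil 2 (-0.438) and WT_Oil 3 (-0.403). Its part in the results was tested only by the GC offset given in the closing section.

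Hmgb2 itself (ENSMUSG00000054717) lies on the plus strand of chromosome 8 between positions 57511907 and 57515999 of mm10. It had 0 and 0.951 CPM in KO_Oil 11 and 12, against 1.93, 1.98 and 2.63 CPM in WT_Oil 1, 2 and 3. Both knockout libraries lay below every wild-type library, at a level at which wild-type liver gave only 70 reads over 3 libraries and knockout liver 7 reads over 2. The difference of -2.14 on the log2 scale (SE 0.72) did not pass the test over all genes (edgeR quasi-likelihood, adjusted p = 0.115). DESeq2 run on the same counts gave an adjusted p of 0.0418, and the authors' deposited table lists a DESeq2 adjusted p of 0.0311. After CCl4 Hmgb2 had 0.387, 0.412 and 0.402 CPM in the knockout against 7.42, 3.14 and 6.69 CPM in wild type. That difference passed in the same edgeR fit (log2 -3.81, SE 0.55, adjusted p = 0.0112). After oil the related chromatin protein genes Hmgb1 and Hmgb3 had log2 fold changes of 0.30 and -0.11 and did not pass (adjusted p = 0.562 and 0.868), and the direction for Hmgb3 turned without WT_Oil 3, to 0.11. Of 15 tested genes of high-mobility group proteins 0 passed.

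Of 16866 tested genes, 694 (4.11%) differed between knockout and wild-type liver after oil at an adjusted p below 0.05, with 370 higher (2.19%) and 324 lower (1.92%) in the knockout. A fold of at least 2 was reached by 303 of those that rose and 220 of those that fell, and 3368 genes had an unadjusted p below 0.05. The median log2 fold change of all genes was 0.01. All 694 had both KO_Oil libraries outside the range of the WT_Oil libraries, as did 38.9% of all tested genes (19.7% above and 19.2% below). DESeq2 run on the same counts called 1297 genes (7.69%), and the authors' deposited table called 1048 of 19207 (5.46%). That table shared 579 genes with the 694, which is 83.4% of the edgeR calls and 55.2% of the authors', all with the same sign.

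The size of this count rested on single libraries. Without KO_Oil 11 it was 18, without KO_Oil 12 it was 152, without WT_Oil 3 it was 130 and without WT_Oil 2 it was 362, while it was 480 without WT_Oil 1. The libraries after CCl4, which share the estimate of the spread, moved it as well, to 1154 without KO_CCL4 15 and to 415 without WT_CCL4 6. With a KO_Oil library left out, the one that remained was taken to vary as the other groups do. Of the 694 genes 11 passed with each of the 5 oil libraries left out in turn, among them Per3, Ciart, Usp2, Elovl5, Map2k6 and Bmf, and 67 passed in all of these fits other than the one without KO_Oil 11. All calls of single genes and lists are to be read with these counts.

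**Figure D1:**
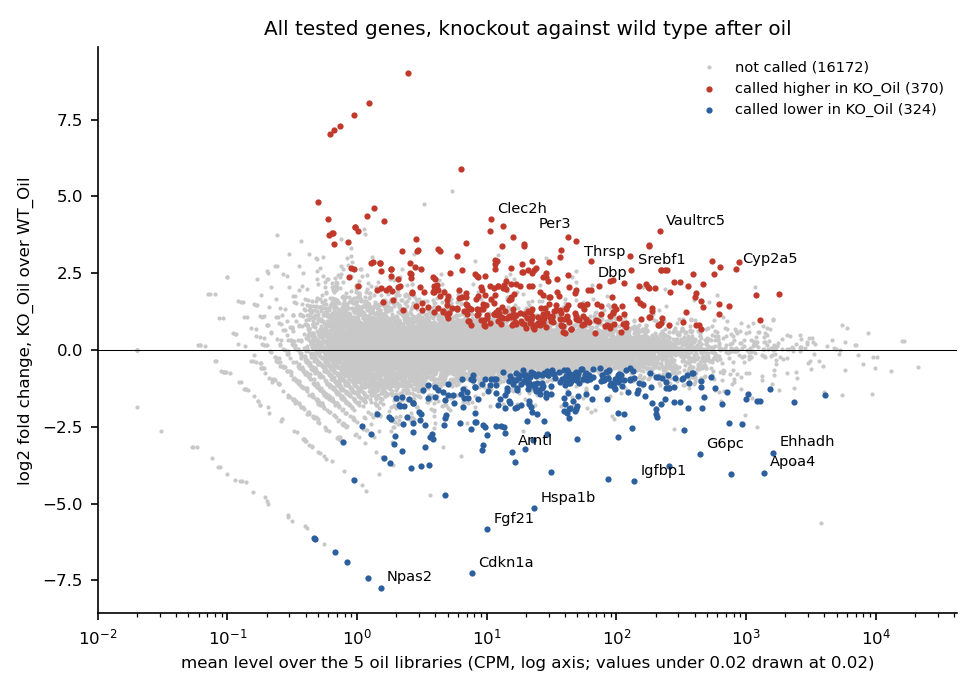
Mean level over the 5 oil libraries in CPM (x axis, log scale) against the log2 fold change of KO_Oil over WT_Oil (y axis) for the 16866 tested genes. The 370 genes called higher (red) and the 324 called lower (blue) spread over the whole range of levels, and the 16172 grey genes did not pass.

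Many genes of the circadian clock differed between knockout and wild-type liver: of 34 tested clock genes 15 rose and 3 fell in the knockout, against 2.19% and 1.92% of all tested genes, with a median log2 fold change of 0.76 against 0.01. Most genes of the negative limb rose and the activators Arntl and Npas2 fell. Sequences around the starts of 4 of the genes that rose are shown first, because they carry the motifs through which the clock proteins act. They run from 250 bases before to 50 bases after the start as RefSeq gives it for GRCm38.p6 (300 bases, written in the direction of transcription), and capitals mark the E-box CACGTG or the D-box (TTATGTAA or TTACGTAA and, on the other strand, TTACATAA; read on both strands; no matches overlap in these windows). Per3 is at chr4:151044616-151044915 on the minus strand, Ciart at chr3:95882179-95882478 on the minus strand, Tef at chr15:81802423-81802722 on the plus strand and Coq10b at chr1:55052520-55052819 on the plus strand.
Per3: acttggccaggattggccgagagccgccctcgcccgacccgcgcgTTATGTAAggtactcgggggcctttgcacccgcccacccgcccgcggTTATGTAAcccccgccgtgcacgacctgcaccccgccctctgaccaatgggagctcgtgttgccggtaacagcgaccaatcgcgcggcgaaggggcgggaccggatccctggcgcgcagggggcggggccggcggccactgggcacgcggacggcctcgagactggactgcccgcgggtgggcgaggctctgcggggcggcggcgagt
Ciart: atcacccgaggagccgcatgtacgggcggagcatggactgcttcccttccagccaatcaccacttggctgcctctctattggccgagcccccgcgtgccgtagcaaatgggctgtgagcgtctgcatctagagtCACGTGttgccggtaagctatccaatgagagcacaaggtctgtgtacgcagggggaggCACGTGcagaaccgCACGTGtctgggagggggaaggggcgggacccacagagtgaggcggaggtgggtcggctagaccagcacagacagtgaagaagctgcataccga
Tef: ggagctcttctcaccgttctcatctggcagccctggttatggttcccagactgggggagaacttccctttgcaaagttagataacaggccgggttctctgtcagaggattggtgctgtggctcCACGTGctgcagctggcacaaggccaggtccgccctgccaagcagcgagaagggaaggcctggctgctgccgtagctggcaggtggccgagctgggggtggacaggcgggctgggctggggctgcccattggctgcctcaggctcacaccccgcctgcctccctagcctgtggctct
Coq10b: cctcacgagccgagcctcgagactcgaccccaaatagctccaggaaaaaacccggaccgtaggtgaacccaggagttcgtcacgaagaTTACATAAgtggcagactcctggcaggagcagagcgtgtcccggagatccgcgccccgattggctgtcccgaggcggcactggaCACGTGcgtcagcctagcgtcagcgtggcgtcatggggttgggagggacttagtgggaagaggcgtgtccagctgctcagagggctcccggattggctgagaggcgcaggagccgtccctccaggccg
The Per3 window holds 2 D-boxes, starting at -205 and -158 from the start, and the Ciart window 3 E-boxes, at -116, -58 and -44. Tef has an E-box at -127 in the window shown, which is 1 of its 2 RefSeq windows. Coq10b has an E-box at -78 and a D-box at -162. An E-box was found in 7.15% of all 32851 windows (2349) and a D-box in 1.06% (347). Of the 28 clock genes with a window 8 held an E-box and 2 a D-box, and of the 14 called ones with a window 4 held an E-box (Ciart, Tef, Coq10b and Bhlhe41). The remaining E-box holders, Per1, Cry1, Lonrf3 and Tspan4, were not called. A gene counted if any of its windows held the motif, so these counts are not the same measure as the shares of windows. A match describes these letters only.

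In the negative limb 8 of 11 tested genes rose and none fell, with a median log2 fold change of 1.11. Per3 (ENSMUSG00000028957, chromosome 4, 151003652 to 151044665, minus strand), a period gene, had 97.2 and 93.0 CPM in the KO_Oil libraries, against 5.79, 8.0 and 8.09 CPM in the WT_Oil libraries. Its knockout libraries nearly coincided and lay far above all wild-type ones, and the log2 fold change was 3.69 (SE 0.42, adjusted p = 0.00253). Ciart, a repressor of the ARNTL and CLOCK dimer, had 22.8 and 24.6 CPM in KO_Oil, against 3.29, 2.44 and 4.58 CPM in WT_Oil, and rose by 2.79 (SE 0.35, adjusted p = 0.00343). Bhlhe41, a further E-box repressor, had 8.76 and 9.51 CPM in KO_Oil and 0.795, 1.14 and 0.779 CPM in WT_Oil (log2 3.29, SE 0.75, adjusted p = 0.0319). These 3 genes showed the widest gaps of the limb. Cry2, Per2, Nr1d1, Nr1d2 and Bhlhe40 rose by 0.99 to 1.95 on the log2 scale (adjusted p from 0.00379 to 0.0401), with no overlap between the groups. Per1 had 53.8 and 33.4 CPM in KO_Oil against 29.9, 22 and 32.9 CPM in WT_Oil and did not pass (log2 0.63, adjusted p = 0.114), nor did Cry1 (-0.10, adjusted p = 0.912) or the repressor gene Nfil3 (-1.46, adjusted p = 0.065).

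Of 5 activator genes 2 fell and 1 rose. Arntl, which encodes the central activator BMAL1, had 2.15 and 2.72 CPM in the KO_Oil libraries, against 28.5, 20.7 and 24.2 CPM in the WT_Oil libraries (log2 -3.31, SE 0.58, adjusted p = 0.0117). Npas2, a partner of ARNTL, had no read in either KO_Oil library and 3.18, 1.6 and 2.83 CPM in WT_Oil (adjusted p = 0.00959). With 3 counts taken as the upper limit for both knockout libraries together, Npas2 was at least 11.6-fold lower, which covers counting error only. Clock was at 55.4 and 61.8 CPM in KO_Oil, against 54.2, 162 and 156 CPM in WT_Oil, where WT_Oil 1 overlapped the knockout libraries, and it did not pass (adjusted p = 0.139).

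Among 18 clock output genes 6 rose and 1 fell. Dbp, the PAR bZIP factor that binds D-boxes, had 123 and 144 CPM in KO_Oil, against 18.2, 17.1 and 18 CPM in WT_Oil (log2 2.91, SE 0.43, adjusted p = 0.00622). Its relative Tef had 288 and 294 CPM in KO_Oil, against 124, 117 and 117 CPM in WT_Oil (log2 1.28, SE 0.18, adjusted p = 0.0051). Wee1, the kinase gene that holds back mitosis, had 24.5 and 24.2 CPM in KO_Oil, against 1.7, 3.89 and 3.80 CPM in WT_Oil (log2 2.93, SE 0.47, adjusted p = 0.00773). In all 3 the knockout libraries agreed closely and stood well clear of the wild-type ones. Usp2, a deubiquitinase gene with a daily rhythm in liver, had 50 and 39.0 CPM in KO_Oil and 11.1, 4.88 and 7.70 CPM in WT_Oil (log2 2.51, SE 0.29, adjusted p = 0.00264). Coq10b and Nampt, which encodes the rate-limiting enzyme of NAD salvage, rose by 1.27 and 1.10. Tsc22d3, the glucocorticoid-induced leucine zipper gene, fell by 1.3 (adjusted p = 0.0112). The 15 rises of the clock genes became 3 without KO_Oil 11, 8 without KO_Oil 12 and 7 without WT_Oil 3, and the 3 falls became 0 without either KO_Oil library.

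**Figure D2:**
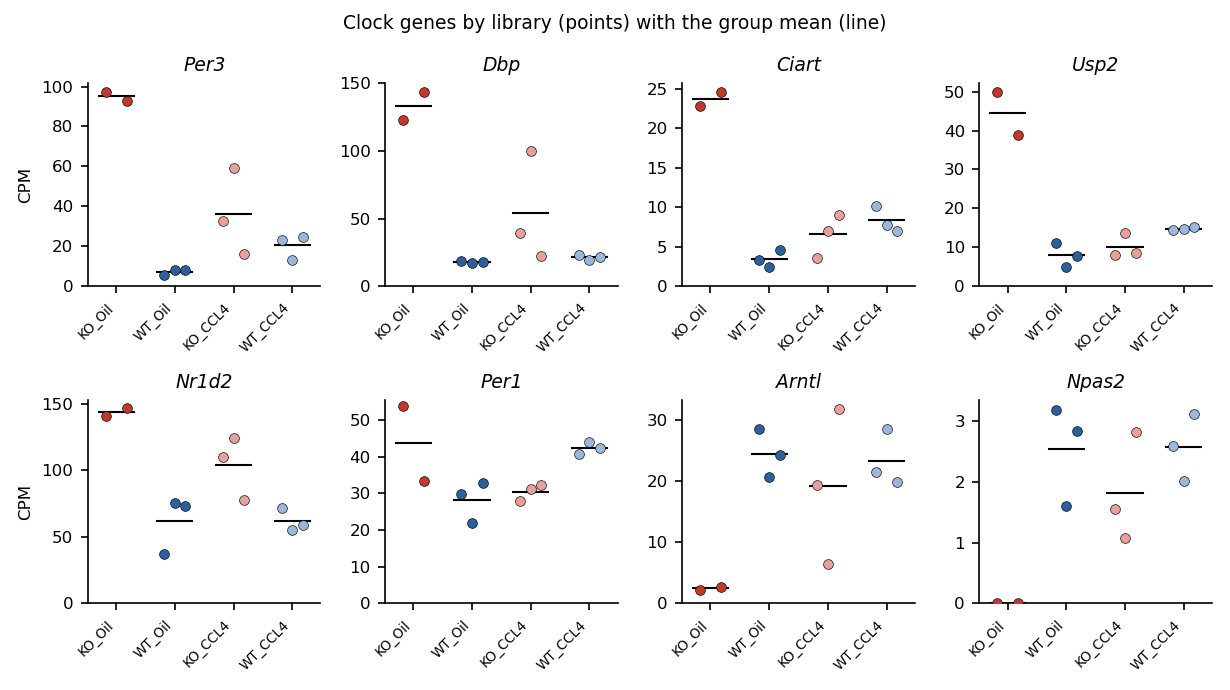
CPM (y axis, from 0) of 8 clock genes in each library (points) with the group mean (line), for KO_Oil, WT_Oil, KO_CCL4 and WT_CCL4. Per3, Dbp, Ciart and Usp2 of both KO_Oil libraries lie above all the other 9 libraries, and Arntl and Npas2 lie below all of them.

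Fatty acid oxidation genes were among those that fell in knockout liver. Of 81 tested genes of fatty acid oxidation, ketone body formation and related PPARA targets 26 fell and 0 rose, against 1.92% lower and 2.19% higher of all genes. Their median log2 fold change was -0.91 with 75 of 81 below 0, against a median of 0.01 with 8270 of 16866 below 0 for all genes. The receptor gene Ppara had 197 and 199 CPM in KO_Oil, against 215, 250.2 and 246 CPM in WT_Oil, and did not pass (log2 -0.26, SE 0.17, adjusted p = 0.444). The 26 falls became 0 without KO_Oil 11, 6 without KO_Oil 12, 8 without WT_Oil 3, and 18 and 20 without WT_Oil 2 and WT_Oil 1.

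In the peroxisome 5 of 20 genes fell (median -0.81). Ehhadh, which encodes the bifunctional enzyme of peroxisomal beta-oxidation, had 197 and 304 CPM in KO_Oil, against 2269, 2098 and 3232 CPM in WT_Oil (log2 -3.34, SE 0.64, adjusted p = 0.0171). Every knockout library lay far below the wild-type ones. The thiolase gene Acaa1b and the acyltransferase genes Crot and Crat fell by 1.67, 1.66 and 2.54.

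In the mitochondrion 9 of 21 genes fell (median -1.08). Cpt1a, which controls fatty acid entry, had 483 and 547 CPM in KO_Oil, against 1715, 1071 and 1386 CPM in WT_Oil (log2 -1.43, SE 0.32, adjusted p = 0.0319). Acot1, an acyl-CoA thioesterase gene of the cytosol that the list holds with its relatives, had 6.75 and 8.15 CPM in KO_Oil and 89.8, 139 and 187 CPM in WT_Oil (log2 -4.21, SE 0.82, adjusted p = 0.0188). Its mitochondrial paralog Acot2 had 1.72 and 2.45 CPM in KO_Oil and 11.1, 27.4 and 39.8 CPM in WT_Oil. Acot1 and Acot2 are near copies, so reads may be shared between them. Acsl1, Hadha, Hadhb, Etfdh, the carnitine carrier gene Slc25a20 and the pyruvate dehydrogenase kinase gene Pdk4 fell by 1.20 to 2.33.

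Of 6 tested fatty acid omega-hydroxylase genes of the Cyp4a family 0 passed. In 4 of them both KO_Oil libraries lay below all WT_Oil ones, against 19.2% of all genes. The groups overlapped for Cyp4a12a (log2 0.18) and Cyp4a12b (log2 -0.75). Cyp4a14 had 15.2 and 234 CPM in the KO_Oil libraries, against 6023, 5445 and 7211 CPM in the WT_Oil libraries (log2 -5.64, SE 1.63, adjusted p = 0.0716). Cyp4a10 had 72.4 and 502 CPM in KO_Oil, against 4178, 2665 and 4239 CPM in WT_Oil (log2 -3.68, SE 1.08, adjusted p = 0.0748). Both genes were far lower in each knockout library than in any wild-type one, and KO_Oil 12 stood far above KO_Oil 11. Of the 7 tested genes of this step 0 passed by edgeR (median -1.33).

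Of 7 genes of ketone body formation and its hormone 3 fell. Fgf21, the fasting hormone of the liver, had 0.431 and 0.136 CPM in KO_Oil (4 reads in all), against 17.8, 13.3 and 18.7 CPM in WT_Oil (log2 -5.83, SE 1.31, adjusted p = 0.031). Slc16a1, a monocarboxylate transporter gene, fell by 2.06 and the dehydrogenase gene Bdh1 by 0.88.

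Lipid droplet genes and regulators followed, with 9 of 26 lower (median -0.88). Plin2, a coat protein of lipid droplets, had 178 and 246 CPM in KO_Oil, against 955, 1149.6 and 1178 CPM in WT_Oil (log2 -2.37, SE 0.31, adjusted p = 0.00379). Cidec, which encodes a droplet fusion protein, had 2.73 and 3.67 CPM in KO_Oil and 60.4, 27.4 and 62.5 CPM in WT_Oil (log2 -3.96, SE 0.78, adjusted p = 0.0189). The knockout libraries were low without exception. Plin4, Vnn1, Angptl4 (an inhibitor of lipoprotein lipase), Mgll, G0s2, Slc27a1 and Fitm2 fell by 1.13 to 2.90. Apoa4, an apolipoprotein gene of the periportal list, had 189 and 86.6 CPM in KO_Oil and 4341, 584 and 1629 CPM in WT_Oil, where the wild-type libraries themselves differed widely (log2 -3.99, SE 0.96, adjusted p = 0.0387).

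**Figure D3:**
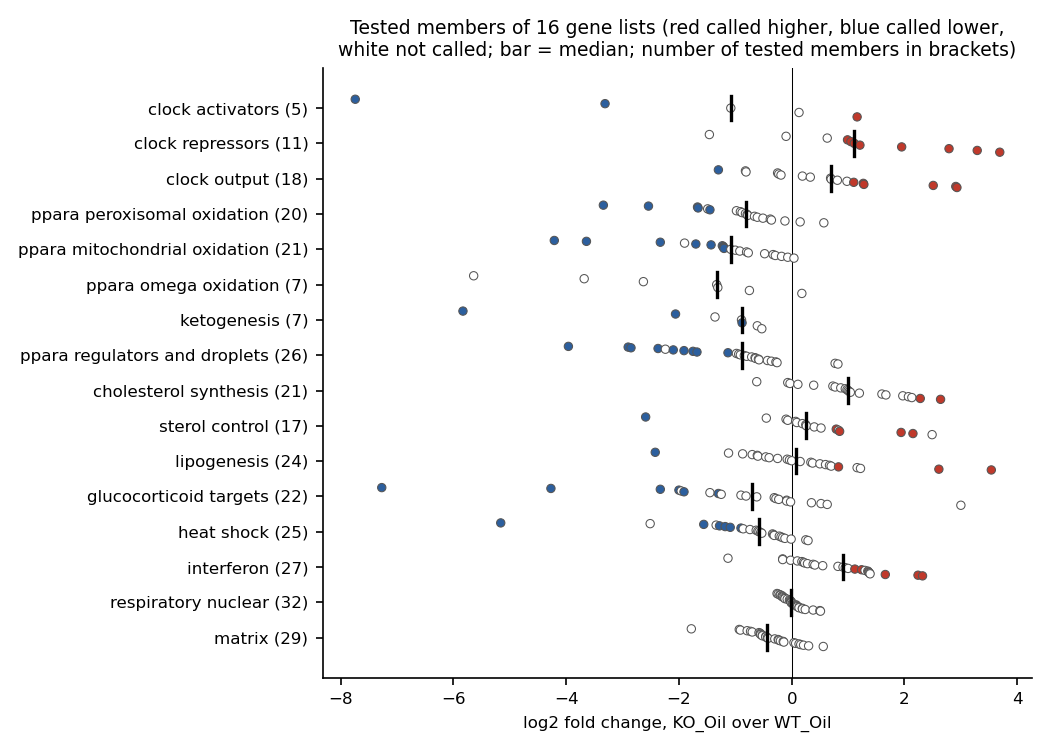
Log2 fold change of KO_Oil over WT_Oil (x axis) for the tested members of 16 gene lists (rows, number tested in brackets); red points were called higher, blue called lower, white not called, and the bar is the list's median. The median lies to the right of 0 for clock repressors, with 9 of 11 members above 0, and to the left for the lists of fatty acid oxidation and ketone body formation, with 0 to 2 members of each list on the other side, while 0 of 32 nuclear respiratory chain genes and 0 of 29 matrix genes were called.

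Some lipid synthesis genes rose. Of 21 cholesterol synthesis genes 2 rose and 0 fell, with a median of 1.0, against 2.19% higher of all genes and their median of 0.01. Msmo1, a sterol methyl oxidase gene, had 174 and 185 CPM in KO_Oil, against 38.3, 42.8 and 29.8 CPM in WT_Oil (log2 2.28, SE 0.45, adjusted p = 0.019), and Idi1, the isopentenyl diphosphate isomerase gene, rose by 2.64 (adjusted p = 0.0446). Their regulator Srebf2 was close between groups, at 31.7 and 26.0 CPM in KO_Oil and 26.8, 24.8 and 21.3 CPM in WT_Oil (log2 0.25, adjusted p = 0.53). These rises became 0 without WT_Oil 3 or without either KO_Oil library, and up to 12 of the 21 passed in the other settings tried.

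The 2 Insig genes, whose products hold the SREBP proteins in the endoplasmic reticulum, moved in opposite directions. Insig1 had 301 and 335 CPM in KO_Oil, against 73.5, 87.3 and 54.7 CPM in WT_Oil (log2 2.15, SE 0.52, adjusted p = 0.0387). Insig2 had 89.0 and 75.6 CPM in KO_Oil, against 455, 421 and 606 CPM in WT_Oil (log2 -2.59, SE 0.56, adjusted p = 0.0274). Neither gene's groups overlapped. Of 17 genes of sterol control 4 rose and 1 fell (median 0.26), and the 4 became 0 without WT_Oil 3 or either KO_Oil library. Abcg5 and Abcg8, neighbouring genes of the sterol exporter, rose by 0.79 and 0.85, and Stard4, a cholesterol transfer gene, by 1.94.

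Among 24 lipogenesis genes 3 rose and 1 fell (median 0.07), against 2.19% higher and 1.92% lower of all genes. The 3 rises became 0 without WT_Oil 2, WT_Oil 3 or KO_Oil 11, and 1 without WT_Oil 1 or KO_Oil 12. Srebf1, the insulin-responsive regulator of fatty acid synthesis, had 261 and 262 CPM in KO_Oil, against 48.6, 42.3 and 37.5 CPM in WT_Oil (log2 2.61, SE 0.54, adjusted p = 0.0229). Thrsp, a gene that rises with lipogenesis, had 162 and 54.0 CPM in KO_Oil and 11.7, 9.22 and 7.01 CPM in WT_Oil, so that its knockout libraries differed 3-fold while both lay above wild type (log2 3.54, SE 0.75, adjusted p = 0.0242). Elovl5, an elongase of polyunsaturated fatty acids, went the other way, with 238 and 277 CPM in KO_Oil and 1585, 1074 and 1473 CPM in WT_Oil (log2 -2.42, SE 0.26, adjusted p = 0.00244). It had the lowest p of the named genes and passed with each oil library left out. Fasn, the fatty acid synthase gene, had 336 and 232 CPM in KO_Oil against 147, 126 and 107 CPM in WT_Oil and did not pass (log2 1.16, SE 0.58, adjusted p = 0.288). The acyltransferase gene Dgat2 rose by 0.83.

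Of 17 gluconeogenesis genes 1 fell (median -0.31, 13 of 17 below 0), and of 18 genes of glycolysis and insulin signalling 1 rose and 1 fell (median 0.09), against 1.92% lower and 2.19% higher of all genes. In 9 of the 17 both KO_Oil libraries lay below all WT_Oil ones, as in 19.2% of all genes. G6pc, which encodes the glucose-6-phosphatase that releases glucose, had 84.4 and 48.2 CPM in KO_Oil, against 1078, 566 and 434 CPM in WT_Oil (log2 -3.38, SE 0.59, adjusted p = 0.0117). Igfbp1, which insulin lowers, had 12.3 and 10.5 CPM in KO_Oil, against 271, 146 and 243 CPM in WT_Oil (log2 -4.27, SE 0.58, adjusted p = 0.0043). Both genes had knockout libraries far outside the wild-type range. Pck1, another gene of the gluconeogenesis list, had 2539 and 3597 CPM in KO_Oil and 5069, 4191 and 4026 CPM in WT_Oil and did not pass (log2 -0.53, adjusted p = 0.392). The call of G6pc was lost without either KO_Oil library (adjusted p up to 0.0999).

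**Figure D4:**
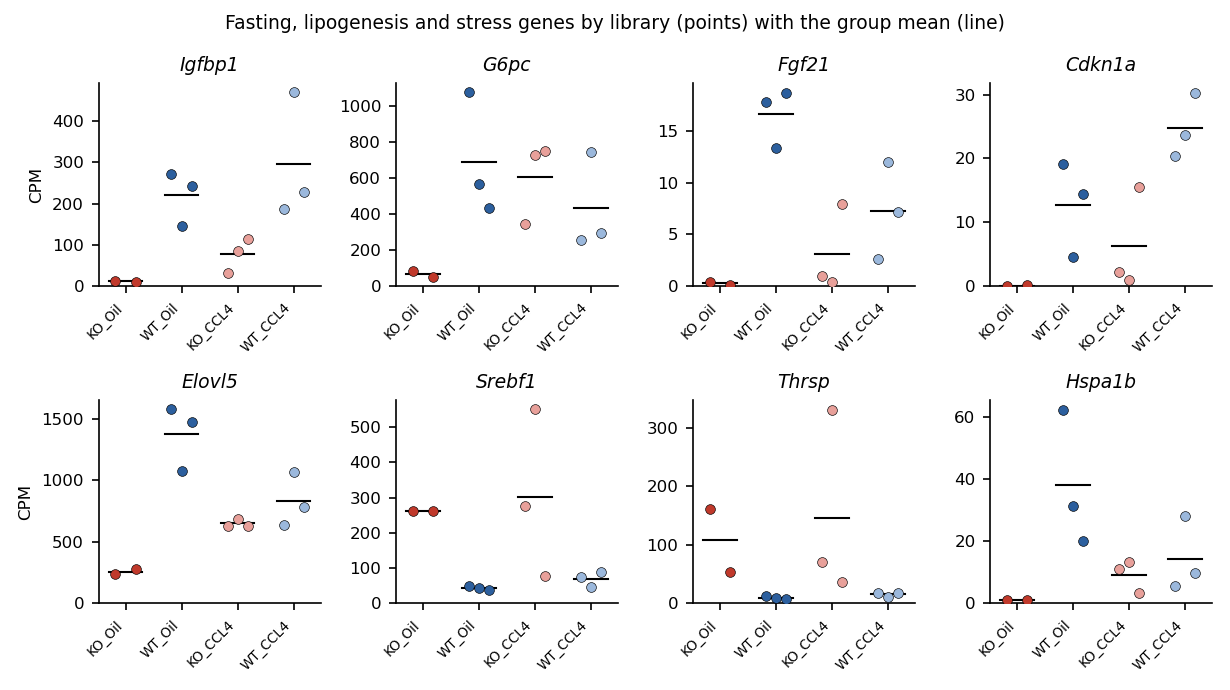
CPM (y axis, from 0) of 8 fasting, lipogenesis and stress genes in each library (points) with the group mean (line). In KO_Oil, Igfbp1, G6pc, Fgf21, Cdkn1a and Hspa1b lie near 0 and below all WT_Oil libraries, as does Elovl5 at a higher level, while Srebf1 and Thrsp lie above them.

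Some stress-related genes fell. Of 22 glucocorticoid targets 6 fell and 0 rose (median -0.71), against 1.92% lower of all genes. They were Igfbp1, Tsc22d3, Pdk4, Angptl4, Cdkn1a and Zbtb16. All but Zbtb16 are also counted in other lists: Igfbp1 with insulin signalling, Tsc22d3 with clock output, Pdk4 and Angptl4 with PPARA targets, and Cdkn1a with p53 targets. These falls are therefore not separate from those counts. Cdkn1a, the cell cycle inhibitor p21 and also a p53 target, had 0 and 0.136 CPM in KO_Oil, a single read, against 19.1, 4.5 and 14.5 CPM in WT_Oil (adjusted p = 0.0398). With pooled reads the knockout level was 0.00598 of the wild-type one, with a 95% counting interval of 0.000151 to 0.0335. It was the only one of 18 tested p53 targets that passed. The transcription factor gene Zbtb16 had 11.2 and 17.0 CPM in KO_Oil and 58.2, 43.7 and 68.2 CPM in WT_Oil (log2 -2.0, SE 0.26, adjusted p = 0.00367). The receptor gene Nr3c1 and the target Fkbp5 did not pass (log2 0.52 and 0.35, adjusted p = 0.26 and 0.745).

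Of 25 heat shock genes 6 fell and 0 rose (median -0.58, 23 of 25 below 0), against 1.92% lower and 8270 of 16866 below 0 for all genes. Hspa1b, the inducible HSP70 gene, had 1.0 and 1.09 CPM in KO_Oil, against 62.2, 31.3 and 20.1 CPM in WT_Oil (log2 -5.16, SE 0.96, adjusted p = 0.0155). Its near-identical copy Hspa1a had 0.144 and 0.815 CPM in KO_Oil and 5.11, 2.44 and 1.07 CPM in WT_Oil and did not pass (adjusted p = 0.181), and reads may be split between the copies. The constitutive chaperone gene Hspa8 had 798 and 831 CPM in KO_Oil and 2428, 1663 and 1861 CPM in WT_Oil (log2 -1.28, SE 0.27, adjusted p = 0.022). Hsph1, Hsp90aa1, Bag3 and Stip1 fell by 0.90 to 1.56. The heat shock regulator gene Hsf1 did not pass (log2 0.25, adjusted p = 0.566), and its direction turned without KO_Oil 12, to -0.07. Of 25 genes of endoplasmic reticulum stress 2 fell, Creld2 by 1.23 and Ddit3, which encodes the factor CHOP, by 1.15, and of 22 immediate early genes 0 passed. These 6 heat shock falls became 0 without either KO_Oil library and 2 without WT_Oil 3, and the 6 glucocorticoid falls became 0 without KO_Oil 11.

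Some detoxification genes rose: of 22 NRF2 and glutathione genes 2 rose and 1 fell (median 0.36), against 2.19% higher of all genes. Of 22 genes of xenobiotic P450 enzymes and their regulators 2 rose, Cyp2a5 and Cyp2a4, against the same 2.19%. Among these 22 genes 9 lay above 0 and 13 below (median -0.11), so the list as a whole did not rise. The 2 rises among the NRF2 genes became 0 without WT_Oil 3 or either KO_Oil library, and the 2 among the P450 genes became 0 with any oil library left out. Gstm3, a glutathione S-transferase gene, had 90.3 and 64.7 CPM in KO_Oil, against 8.74, 11.2 and 8.09 CPM in WT_Oil (log2 3.04, SE 0.60, adjusted p = 0.0189), and Gstm1 had 1867 and 1749.8 CPM in KO_Oil, against 939, 987 and 838 CPM in WT_Oil (log2 0.97, SE 0.22, adjusted p = 0.03). Of the 19 tested genes of the glutathione transferase family, looked up after their values were seen, 4 rose and 0 fell, with Gsta3 and Gstt3 higher by 1.79 and 1.35. Members of this family resemble each other closely, so reads may be shared. Srxn1, another NRF2 target, fell by 0.88. Cyp2a5, a cytochrome P450 gene that hydroxylates coumarin, had 1734 and 1607 CPM in KO_Oil, against 229, 296 and 277 CPM in WT_Oil (log2 2.64, SE 0.66, adjusted p = 0.0446). Cyp2c29 had 3111 and 3155 CPM in KO_Oil and 670.2, 955 and 1041 CPM in WT_Oil (log2 1.82, SE 0.33, adjusted p = 0.0141), and Cyp1a2 rose by 1.41. Both Cyp2c29 and Cyp1a2 are counted with the pericentral genes and not among the 22 P450 genes. Abcb4, the phospholipid exporter of bile, had 232 and 309 CPM in KO_Oil and 762, 914 and 1063 CPM in WT_Oil (log2 -1.75, SE 0.31, adjusted p = 0.0117), and Akr1d1, a steroid reductase gene of bile acid synthesis, rose by 1.38.

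Of 27 tested genes that interferon induces 6 rose and 0 fell (median 0.91), and of 21 acute phase genes 3 rose (median 0.44), against 2.19% higher of all genes. Ifi44 had 9.48 and 5.84 CPM in KO_Oil, against 1.14, 1.45 and 1.95 CPM in WT_Oil (log2 2.32, SE 0.44, adjusted p = 0.0158), and Rtp4 had 27.6 and 36.3 CPM in KO_Oil and 11.1, 14.3 and 14.9 CPM in WT_Oil (log2 1.24, SE 0.20, adjusted p = 0.00727). The genes Saa1, Saa2, Fga, Fgb and Fgg are listed apart as very abundant and were not tested, so these 3 rises do not describe them. In the acute phase list Saa4 had 288 and 227 CPM in KO_Oil and 85.9, 113 and 80.6 CPM in WT_Oil (log2 1.47, SE 0.22, adjusted p = 0.00633). Hamp2, a relative of the iron hormone hepcidin that the iron list also counts, had 21.1 and 16.7 CPM in KO_Oil and 4.31, 3.28 and 3.02 CPM in WT_Oil (log2 2.42, SE 0.31, adjusted p = 0.00367). Orm3 had 16.9 and 1.90 CPM in KO_Oil and 1.25, 0.686 and 1.07 CPM in WT_Oil, so that its mean rested on KO_Oil 11. The 3 acute phase rises became 2 without WT_Oil 2 or WT_Oil 3. They are not to be read as holding without KO_Oil 11, a fit that leaves 1 knockout library. The 6 interferon rises became 0 without KO_Oil 11, 1 without KO_Oil 12, and 2 without WT_Oil 2 or WT_Oil 3.

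Among interferon-inducible GTPase genes, families looked up after their values were seen, 4 of 11 guanylate-binding protein (Gbp) genes and 6 of 9 immunity-related GTPase genes rose and 0 fell, against 2.19% higher of all genes. The Gbp genes summed to 132 and 341 CPM in KO_Oil 11 and 12, against 44.2, 81.5 and 58.6 CPM in WT_Oil 1, 2 and 3. The immunity-related GTPase genes summed to 767 and 1815 CPM in KO_Oil and 259, 675 and 519 CPM in WT_Oil. In both sums KO_Oil 12 was more than 2-fold above KO_Oil 11. Tgtp1 showed this most, with 8.18 and 76.1 CPM in KO_Oil 11 and 12, against 5.34, 4.12 and 2.73 CPM in WT_Oil (log2 3.38, SE 0.82, adjusted p = 0.0398). Gbp10 had 10.5 and 61.3 CPM in KO_Oil and 2.72, 3.43 and 2.14 CPM in WT_Oil (log2 3.68, SE 0.83, adjusted p = 0.0319). Neither call held with any oil library left out, nor did those of Gbp3 and Gbp7. Genes of these families share sequence, and reads may be split between them.

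Markers of blood cells stood beside these genes. Of 12 tested T and NK cell markers 2 rose, against 2.19% higher of all genes. They were Gzmb and Nkg7, the genes of a cytotoxic granule protease and a granule membrane protein. Both had few reads: Gzmb 26 over the KO_Oil and 9 over the WT_Oil libraries, and Nkg7 28 and 10. The 2 calls became 0 without WT_Oil 3, and 1 without WT_Oil 1 or WT_Oil 2. They are also not to be read as holding without either KO_Oil library, a fit that leaves 1 knockout library. This list summed to 36.3 to 40.6 CPM in KO_Oil and 18.9 to 31.2 CPM in WT_Oil, with a median log2 fold change of 1.57. Of 11 B and plasma cell markers Ms4a1 rose (log2 1.97, SE 0.32, adjusted p = 0.00957), while the list's sum, most of which was Sdc1, was 245 to 275 CPM in KO_Oil and 357 to 601 CPM in WT_Oil. Of 16 Kupffer cell markers 1 rose, the iron exporter gene Slc40a1, with a summed level of 1213 to 1416 CPM in KO_Oil and 816 to 1038 CPM in WT_Oil. The monocyte and macrophage list (16 genes, 1 called) summed to 207 to 293 CPM in KO_Oil and 114 to 217 CPM in WT_Oil, and 0 of 8 neutrophil, 0 of 12 dendritic, 0 of 18 stellate and 0 of 20 endothelial markers passed. Neutrophil markers summed to 11.7 to 17.2 CPM in KO_Oil and 3.51 to 9.76 CPM in WT_Oil, and dendritic and MHC class II genes to 277 to 579 CPM in KO_Oil and 207 to 260.4 CPM in WT_Oil, with no overlap in either. None of these lists had a marker at 0 in all 5 libraries. Their part in the interferon result was not tested. In such bulk samples a different number of cells of a type and a different amount of RNA per cell cannot be told apart.

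Many small RNA genes rose. Of 20 mitochondrial tRNA genes 10 rose and 0 fell, of 26 small nuclear RNA genes 9 rose, and of 151 small nucleolar RNA genes 33 rose and 1 fell, against 2.19% higher and 1.92% lower of all genes. Mitochondrial tRNA genes took 0.749% and 0.350% of the counts in KO_Oil 11 and 12, against 0.112%, 0.102% and 0.0989% in WT_Oil 1, 2 and 3, and 0.247% in KO_CCL4 15. Small nucleolar RNA genes took 0.686% and 0.358% in KO_Oil, against 0.180%, 0.146% and 0.128% in WT_Oil, and 0.295% in KO_CCL4 15. KO_Oil 11 was the highest library in both classes, and KO_CCL4 15 was above the other libraries that had received CCl4. The neighbouring tRNA genes mt-Ta, mt-Tn, mt-Tc and mt-Ty carried most of this. mt-Tn had 2609 and 1019.7 CPM in KO_Oil and 318, 215 and 212 CPM in WT_Oil (log2 2.87, SE 0.54, adjusted p = 0.0158), whereas mt-Tm had 54.8 and 50.7 CPM in KO_Oil and 18.4, 21.8 and 24.2 CPM in WT_Oil (log2 1.3, SE 0.17, adjusted p = 0.00425). Vaultrc5, a vault RNA, had 641 and 334 CPM in KO_Oil and 53.1, 27.5 and 20.1 CPM in WT_Oil (log2 3.86, SE 0.65, adjusted p = 0.00976). Snora81 had 437 and 342 CPM in KO_Oil and 51.2, 32.9 and 26.5 CPM in WT_Oil (log2 3.40, SE 0.76, adjusted p = 0.0301), and it lies within Eif4a2, so reads of both genes may be shared. The call of Snora81 was lost with any WT_Oil library left out, and that of Vaultrc5 without WT_Oil 3. That of mt-Tm held in each of these fits. Whether these values describe total or capped RNA is not settled by the labels, and how the recovery of such short RNAs differed between the library preparations was not tested.

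**Figure D5:**
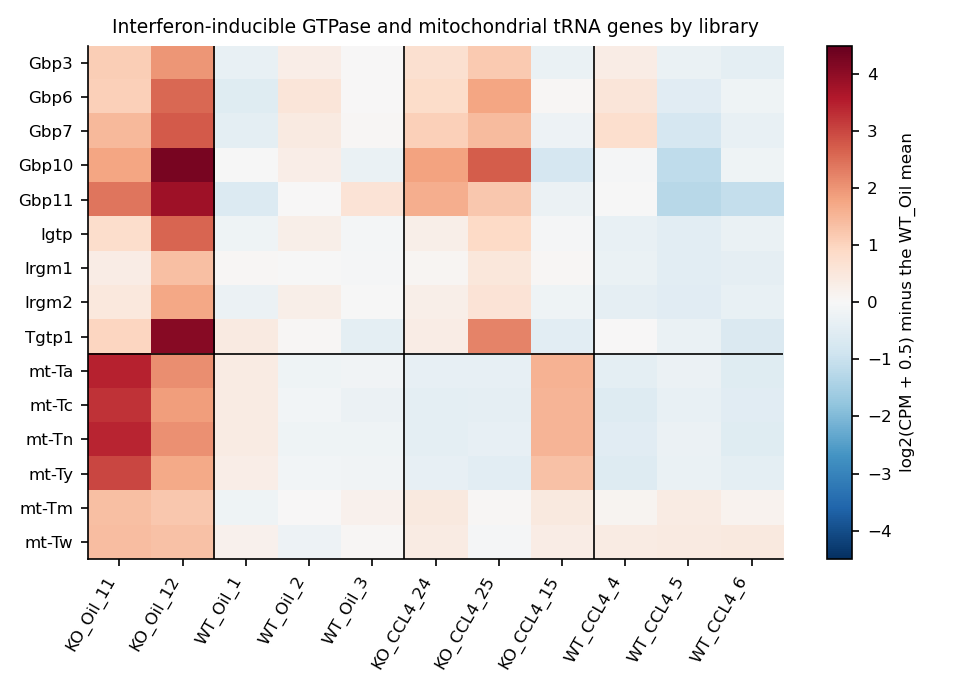
Interferon-inducible GTPase genes (upper 9 rows) and mitochondrial tRNA genes (lower 6 rows) in the 11 libraries (columns), coloured by log2(CPM + 0.5) minus the WT_Oil mean. KO_Oil 12 is the highest library for the GTPase genes and KO_Oil 11 for mt-Ta, mt-Tc, mt-Tn and mt-Ty, where KO_CCL4 15 is also raised.

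Other genes stood out by the size of the change or by a low p. Clec2h, a C-type lectin gene, had 12.8 and 37.4 CPM in KO_Oil, against 2.04, 1.22 and 0.682 CPM in WT_Oil (log2 4.27, SE 0.82, adjusted p = 0.0179). Map2k6, which encodes a kinase that activates p38, had 15.9 and 15.8 CPM in KO_Oil, against 2.72, 2.52 and 3.41 CPM in WT_Oil (log2 2.46, SE 0.28, adjusted p = 0.00253). Bmf, a BH3-only gene of cell death, had 23.8 and 26.6 CPM in KO_Oil and 6.24, 6.63 and 4.48 CPM in WT_Oil (log2 2.12, SE 0.25, adjusted p = 0.00264). The knockout libraries of Map2k6 and Bmf lay close together, in contrast to those of Clec2h. Tubb2a, a beta-tubulin gene, had 13.9 and 13.5 CPM in KO_Oil and 52.9, 57.1 and 78.4 CPM in WT_Oil (log2 -2.20, SE 0.28, adjusted p = 0.00367). St5, Unc13b, Atf5, Chka (choline kinase) and Epha2 (an ephrin receptor) fell by 1.24 to 2.32, with adjusted p from 0.00253 to 0.00429 and no overlap. Hsd3b5, a male-biased hepatic steroid dehydrogenase gene, rose by 3.25 and Elovl3, also male-biased, fell by 2.08. Of 24 male-biased and 16 female-biased genes these and Cyp2a4 were the ones that passed, against 4.11% of all genes. The calls of Hsd3b5, Elovl3 and Cyp2a4 were all lost without WT_Oil 2 and also without WT_Oil 3.

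Several lists gave 0, 1 or 2 calls each, against 2.19% higher and 1.92% lower of all genes. In lists of this size 1 call is already a larger share than these. Of 30 mitosis genes 0 passed (median 0.37), of 30 DNA replication genes Tk1 rose, and of 29 matrix genes 0 passed (median -0.43). Of 32 nuclear respiratory chain genes 0 passed (median -0.01), nor did any of 30 ribosomal protein genes. Of 24 pericentral hepatocyte genes 2 rose, of 19 periportal genes 1 fell, and of 21 bile acid genes 1 rose and 1 fell. Single members passed in the lists of amino acid and urea metabolism (Prodh, higher), complement and coagulation (C9, higher) and mitochondrially encoded genes (mt-Co2, lower), and of 22 iron and heme genes 2 rose. Of 8 bile duct markers 0 passed. Markers of mesothelium and fat tissue summed to 9.11 to 13.5 CPM in KO_Oil and 49.7 to 79.5 CPM in WT_Oil, most of it Cidec in WT_Oil, which was the only one of 9 that passed. Of the markers of muscle, pancreas and gut, kidney and adrenal, and red blood cells 0 passed.

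The genotype difference after oil was also set against that after CCl4. The difference of the 2 differences passed for 17 genes (0.101% of those tested), with 2318 at an unadjusted p below 0.05, and DESeq2 called 372. Of the 17, 14 also passed after oil, among them Ciart, Usp2, Map2k6, Elovl5 and Tubb2a. Ciart had 3.58, 7.01 and 9.05 CPM in KO_CCL4 24, 25 and 15, against 10.2, 7.77 and 6.97 CPM in WT_CCL4 4, 5 and 6, so the groups overlapped after CCl4 and stood apart after oil. Elovl5 had 631, 689 and 633 CPM in KO_CCL4, against 640.2, 1068 and 782 CPM in WT_CCL4. The count of 17 was 0 without either KO_Oil library or without WT_Oil 3, and 285 without WT_CCL4 5. Knockout and wild type after CCl4 differed at 202 genes (1.20%), and 30 genes were called in both genotype comparisons, 27 of them with the same sign. Those 30 are 4.32% of the genes called after oil and 14.9% of those called after CCl4.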

How the data were processed

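RNA of 11 mouse liver samples was measured, and the 5 libraries after oil were compared by genotype. Per the file headers and column descriptions, the values of the deposited table are unscaled counts of reads per gene, where an alignment counted for each gene it overlapped and a read pair counted once. The use of strand in counting is not stated, and 49 of the 117 named genes overlap another gene. The authors' FPKM values are these counts scaled by gene length and library total, and were used only to check columns. The authors' deposited log2 ratios (WT over KO in the file, sign turned here) and their adjusted p score (-10 times the log10 of a DESeq2 p) were used only as a comparison. The submitters' processing notes name the aligner Bowtie, the test DESeq2 and the builds mm10 and GRCm38 without versions, and the settings of Bowtie are not given in the sources used here. Start positions in the file are counted from 0 and are printed counted from 1. A separate list of 26 very abundant genes and 30438 with few counts, given by identifier only, was not analysed here.

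The test was the quasi-likelihood F test of edgeR 4.0.16 (run in R 4.3.3, without robust estimation, after TMM scaling). Filtering by filterByExpr (minimum count 10, minimum total 15) left 16866 of 19207 genes. A single fit with 4 group means used the 11 libraries, which share its spread. Genes were called at a Benjamini-Hochberg adjusted p below 0.05, two-sided, and every adjusted p in the report is from this fit unless another tool is named. The standard error is the log2 fold change over the square root of F. Depth was 7306082 to 14116886 counts per library, and intervals and floors (3 counts) cover counting error only.

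The comparison, the 52 gene lists and the families were chosen with earlier results of these data known, and no set test was run. The named genes were Hmgb1 to Hmgb3, the 10 largest rises and falls with a mean of at least 1 CPM and no overlap, up to 5 called members of lowest p of each list with at least 2 calls, the 10 of lowest p in no list, and 28 fixed clock, lipid, glucose and stress genes. Gene models known only by number were left out. Further list and family members named in the text were chosen after their values were seen. Alternatives were RLE and upper quartile scaling, other filters, leaving out mitochondrial genes with the top 50 by abundance, DESeq2 1.42.0, voom (limma 3.58.1), only the oil groups, an offset for GC content and length, and each library left out. No libraries were found to be duplicates. Promoter windows are from RefSeq (GRCm38.p6). Some genes are not reported here; the counts over lists and over named genes include them.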

Additional observations from a re-analysis of the deposited data

Results flagged for a closer look

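For 5 named genes the genotype difference after oil differed from that after CCl4 by the test of the difference itself (edgeR interaction, oil minus CCl4). It was 3.15 for Ciart, 3.05 for Usp2, -2.07 for Elovl5, 2.72 for Map2k6 and -2.77 for Tubb2a, on the log2 scale. None of the 17 genes called in this test remained without KO_Oil 11, without KO_Oil 12 or without WT_Oil 3.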

How the results depend on the processing

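The 694 genes called after oil ranged from 510 to 807 over 7 settings (RLE, upper quartile, no filter, at least 5 CPM, abundant genes removed, limma-voom, oil groups only), and were 1297 by DESeq2 and 1091 with the GC and length offset. With a single library left out they ranged from 18 (without KO_Oil 11) to 1154 (without KO_CCL4 15, an alternative chosen after seeing the data, as were all 6 CCl4 libraries). The share of higher calls, 53.3%, was 77.8% without KO_Oil 11, 73.0% without KO_Oil 12 and 37.7% without WT_Oil 3, and the scalings moved it to 50.1% at most. The median of all genes stayed between -0.01 and 0.03. The 17 genes whose genotype difference depended on treatment ranged from 14 to 20 in 6 settings, and were 372 by DESeq2, 76 with the offset, and 0 to 285 with a library left out; the cause was not tested.

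Of the 100 calls among 117 named genes, 93 were lost without KO_Oil 11, 67 without KO_Oil 12, 60 without WT_Oil 3, 33 without WT_Oil 2, 30 without WT_Oil 1 and 21 by limma-voom. Hmgb3 ranged from -0.23 to 0.11 (without WT_Oil 3) and Hsf1 from -0.07 (without KO_Oil 12) to 0.52 with a library left out, and neither passed. No paired analysis was possible because the groups have no replicate number in common. With 2 knockout libraries, the shallower of the comparison, a gene that did not pass is not shown to be the same in both groups.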
